A study of Mus musculus with 5 samples.

Results

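The genes described here are the matrix proteases of the MMP and ADAMTS families, the TIMP inhibitors and the lysyl oxidases of mouse skin. They were chosen by name alone: every symbol in the gene list of the unsorted libraries that starts with Mmp or Timp and a digit or with Adamts, plus Lox and Loxl1 to Loxl4. This gave 56 of 28001 features, namely 23 Mmp, 19 Adamts, 5 Adamtsl, 4 Timp and 5 lysyl oxidase genes. The rule itself uses no measured value, but it was set with earlier results of these data known.

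Matrix metalloproteinases (MMPs) are zinc proteases, secreted or anchored in the membrane, that cut collagens, proteoglycans and other matrix proteins. ADAMTS proteases cut the hyalectan proteoglycans or trim procollagens, and the ADAMTS-like proteins share their ancillary domains but lack the protease. TIMPs bind and block these enzymes, and lysyl oxidases oxidise lysines of collagen and elastin so that the fibres become crosslinked. In skin the dermal fibroblast is the main maker of fibrillar matrix, while the dermal papilla, a small cluster of specialised mesenchymal cells at the base of the hair follicle, sits in a matrix rich in proteoglycans and basement membrane proteins.

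The study profiled dorsal skin of female mice by droplet single-cell RNA sequencing, in which each molecule is counted once by its unique molecular identifier (UMI). There were 2 control and 2 mutant libraries of whole skin at postnatal day 46, and 1 library of sorted GFP-positive cells at postnatal day 50. All mice carried Lepr-Cre, a recombinase expressed from the leptin receptor gene, and mTmG, a reporter that switches from tomato to GFP in cells where the recombinase has acted and in their descendants. The control genotype is written Lepr-Cre;mTmG in the titles and with Smo after it in the protocol. The mutant is Lepr-Cre;mTmG;Smo+/-, and the sorted cells came from Lepr-Cre;mTmG mice. The labels do not say how the Smo allele, which encodes the Hedgehog signal transducer Smoothened, was changed. Libraries of one genotype are labelled as technical replicates, and every p-value below measures only the spread between such preparations, and a genotype cannot be told apart from the animals or the preparation it was sampled in.

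After filtering, the unsorted libraries held 8097 to 8663 cells with a median of 8284 to 9764 UMIs per cell, and 73.2% to 79.0% of them passed a marker gate. A gate required at least 3 detected markers of a cell type and a score above that of the other types, and used none of the 56 genes. Between any pair of unsorted libraries, 117 to 192 cell barcodes were shared (1.09% to 1.73% of the smaller library), and the sorted library shared 0. Smo itself was not lower in the libraries labelled mutant: in papilla-gated cells it stood at 34.1 and 34.9 counts per 1000000 UMIs (CPM) in control and at 42.8 and 41.5 CPM in mutant libraries. A 3′ tag can lie outside the altered part of a gene, so this checks nothing about the allele. Fibroblast marker RNA was counted in all other groups, and its level differed between genotypes. For example, the median of 9 fibroblast markers stood at 0.172% of its fibroblast level in basal keratinocytes of control and at 0.522% in those of mutant libraries.

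Levels were read as CPM in the summed UMIs of each group and library. Over the 15 groups that held 20 or more cells in each unsorted library, 19 of the 56 genes reached a mean of 50 CPM in a group of the control libraries. These were 6 Mmp, 5 Adamts, 2 Adamtsl, 3 Timp and 3 lysyl oxidase genes. Fibroblasts were the highest group for 11 of the 19, pericytes or vascular smooth muscle for 3, Schwann cells for 2, and papilla, lymphatic endothelium and Langerhans or dendritic cells for 1 each. In the mutant libraries 17 of the 19 were highest in the same group. The exceptions were Mmp3, highest in fibroblasts instead of papilla, and Adamts5, whose mean was highest in the small mast gate. The control rank of Mmp3 rests on few cells: in cells of up to 20000 UMIs it stood at 159 and 20.6 CPM in control papilla and at 168 and 179 CPM in control fibroblasts.

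**Figure D1:**
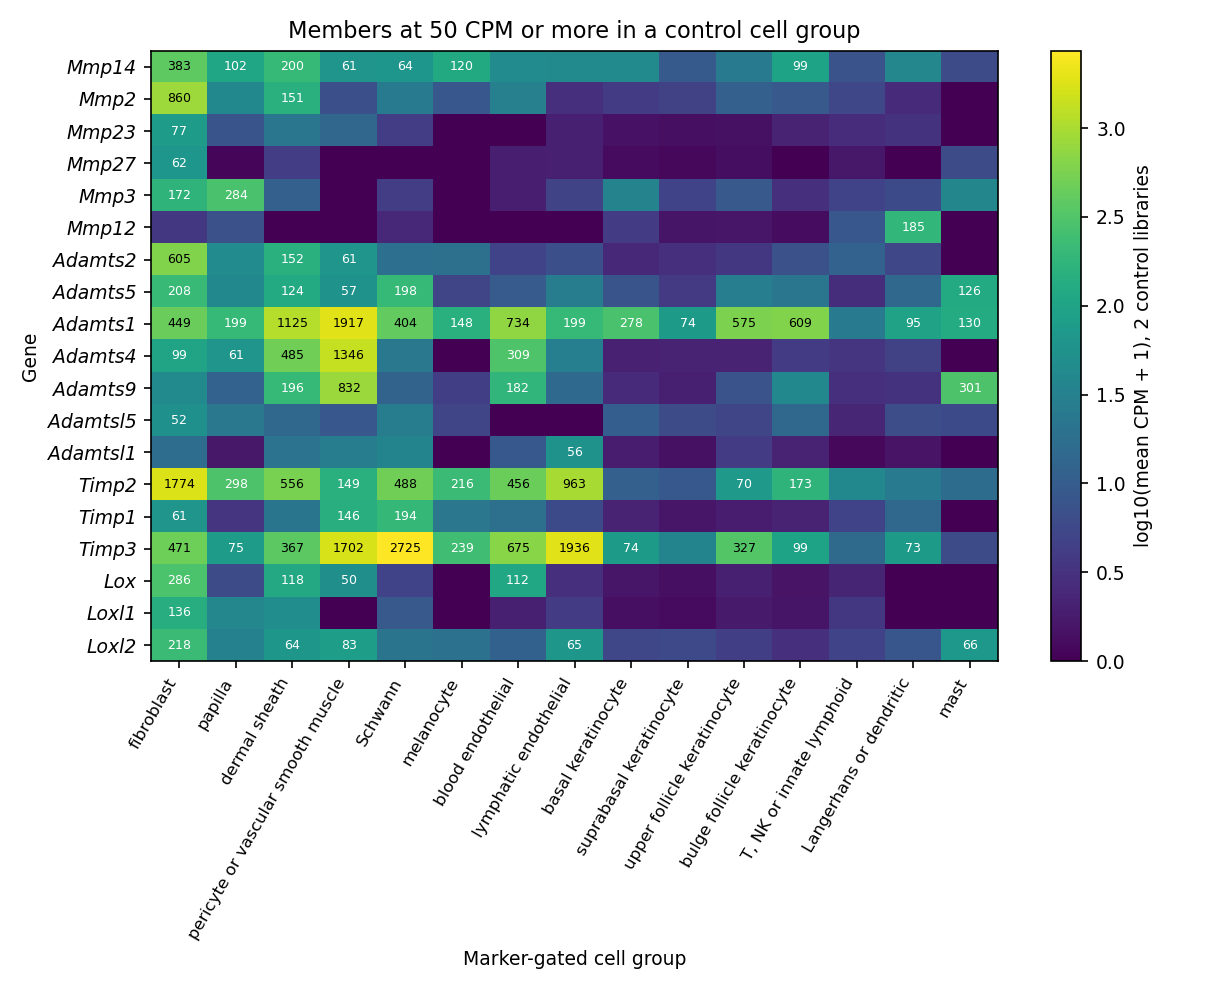
Heat map of the 19 genes that reached 50 CPM, ordered by family, across 15 marker-gated groups (columns); colour is log10 of the mean CPM of 2 control libraries plus 1, and means of 50 CPM or more are written in the cells. The column of fibroblasts holds the highest value of 11 genes, and the pericyte column holds those of Adamts1, Adamts4 and Adamts9.

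Among the proteases of the MMP family, Mmp2, a secreted gelatinase, stood at 889 and 830 CPM in control fibroblasts, against 173 and 129 CPM in dermal sheath cells, the next group. Mmp14, the membrane-anchored MMP that activates pro-MMP2, stood at 388 and 377 CPM in fibroblasts and at 203 and 198 CPM in dermal sheath. Mmp23 stood at 73.9 and 79.6 CPM in fibroblasts. In each of these the control libraries of fibroblasts lay above those of every other group. The group was picked as the highest, so lack of overlap, here and below, describes the spread and is no test. Mmp12, the macrophage elastase, was highest in the Langerhans or dendritic gate with 213 and 157 CPM. A macrophage gate of only 9 and 9 control cells gave 0 and 499 CPM of Mmp12, and the same gate gave 526 and 1424 CPM of Mmp19, whose highest value in the larger groups was 33.0 CPM in papilla.

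Of the ADAMTS proteases that cut proteoglycans, Adamts1, Adamts4 and Adamts9 were highest in pericytes. Adamts1 stood at 1869 and 1965 CPM in control pericytes and at 1057 and 1193 CPM in dermal sheath, with 25.6 CPM or more in each of the other groups described and 278 CPM in basal keratinocytes. Adamts4 stood at 1053 and 1639 CPM in pericytes and Adamts9 at 877 and 787 CPM. For Adamts4 and Adamts9 the control pericyte values did not overlap those of any other group. The pericyte gate held 30 to 43 cells per library, and Adamts4 differed between its control libraries by more than 1.5 times. Adamts5 stood at 195 and 221 CPM in fibroblasts and at 221 and 174 CPM in Schwann cells, so these groups overlapped. Adamts1 and Adamts5 are neighbours on chromosome 16, 53.1 kb apart with 0 protein-coding genes between them. Adamts2, which removes the amino propeptide of procollagen, stood at 591 and 618 CPM in fibroblasts.

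Among the inhibitors, Timp2 stood at 1794 and 1754 CPM in fibroblasts and at 902 and 1024 CPM in lymphatic endothelium. Timp3, the TIMP that binds to the matrix, stood at 2819 and 2631 CPM in Schwann cells, 1876 and 1996 CPM in lymphatic endothelium and 1702 CPM in pericytes, against 471 CPM in fibroblasts and 74.7 CPM in papilla (means of 2 control libraries). Timp1 was highest in Schwann cells, with 223 and 165 CPM, and the pericyte values of 121 and 170 CPM overlapped them. Timp1, Timp3 and Timp4 each overlap a synapsin gene (Syn1, Syn3 and Syn2) on the opposite strand in GRCm38, so reads of those genes could be counted with them only if strand had been ignored, which the sources used here do not state.

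Lox, Loxl1, Loxl2 and Loxl4 were highest in fibroblasts. Lox stood at 280 and 291 CPM there, at 143 and 93.0 CPM in dermal sheath and at 112 CPM in blood endothelium. Loxl2 stood at 225 and 211 CPM in fibroblasts, and Loxl1, which crosslinks elastin, at 132 and 139 CPM. None of the fibroblast values of Lox, Loxl1 and Loxl2 overlapped those of another group. Loxl4 did not reach 50 CPM, and Loxl3 was highest in lymphatic endothelium, at 6.04 and 5.93 CPM. Among the ADAMTS-like genes, Adamtsl5 stood at 56.3 and 48.5 CPM in fibroblasts, and Adamtsl1 at 40.3 and 71.1 CPM in lymphatic endothelium, where Schwann cells had 34.4 CPM. Adamtsl3 stood at 44.7 and 43.7 CPM in T, NK or innate lymphoid cells, which was its highest group.

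A stretch of chromosome 9 carries 10 of the Mmp genes side by side, over 427.1 kb (GRCm38, 9, 7272514 to 7699585): Mmp13, Mmp12, Mmp1b, Mmp3, Mmp1a, Mmp10, Mmp8, Mmp27, Mmp20 and Mmp7. The highest group differed among the tandem genes. Mmp27 stood at 63.1 and 60.9 CPM in control fibroblasts and had a mean of at most 5.28 CPM in any other group. Its direct neighbour Mmp8 had 50 UMIs in all kept cells. Mmp12 was highest in Langerhans or dendritic cells and Mmp10, with a mean of 6.95 CPM, in basal keratinocytes. Mmp3 and Mmp13 (35.2 CPM) had their highest means in papilla, where both rest on few cells, as described below, and so did Mmp1a at 0.758 CPM. Mmp1b, Mmp20 and Mmp7 had 12, 26 and 2 UMIs in all kept cells. Mmp12 overlaps Mmp1b, which lies on the other strand.

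Within the epidermis, 11 of 29 tested genes differed between basal and suprabasal keratinocytes, 10 being higher in basal cells and 1 lower. A gene was called here, as in all comparisons below, at a Benjamini-Hochberg adjusted p under 0.05 over all genes and an absolute log2 change of at least 1. In the same fit 27.3% of all 13489 genes were called, 16.5% higher and 10.8% lower in basal cells, so calls were common. The median log2 difference was 0.79 over the tested members and 0.02 over all genes. The 10 genes higher in basal cells include 4 neighbours of the chromosome 9 cluster. Mmp3, stromelysin 1, had 33.4, 32.7, 45.4 and 50.7 CPM in basal cells of control 1, control 2, mutant 1 and mutant 2 and 4.74, 3.22, 5.75 and 9.21 CPM in suprabasal cells (log2 difference 2.63 ± 0.10 SE, edgeR adjusted p = 2.88e-10). Mmp10, stromelysin 2, had 6.71, 7.18, 7.34 and 6.31 CPM in basal and 1.08, 0.618, 1.21 and 1.26 CPM in suprabasal cells (2.54 ± 0.16, edgeR adjusted p = 2.67e-08). Mmp13, a collagenase, had 21.3, 21.3, 32.5 and 23.9 CPM in basal and 6.86, 2.21, 1.15 and 3.51 CPM in suprabasal cells (2.53 ± 0.28, edgeR adjusted p = 4.53e-06). Mmp12 was 3.22, 2.70, 1.76 and 2.45 CPM in basal and 0.767, 0.397, 0.639 and 0.530 CPM in suprabasal cells (log2 difference 1.92). These Mmp12 values are low beside its control mean of 185 CPM in Langerhans or dendritic cells. The part of RNA from such cells in them was not tested. For all 4 genes every basal value lay above every suprabasal one, as is likely for genes picked by their call. The share of all genes without overlap between the layers was not counted.

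Outside the cluster, Mmp25 (log2 difference 2.21), Mmp14 (2.06) and Adamts1 (1.80) were also higher in basal cells, as were Adamtsl4 (1.40), Adamts14 (1.27) and Timp3 (1.08). Mmp14 had 42.9, 43.3, 43.8 and 43.5 CPM in basal and 7.58, 9.44, 9.01 and 9.61 CPM in suprabasal cells. The gene lower in basal cells was Mmp15, at -1.34, with 1.04 and 1.11 CPM in basal and 1.94 and 2.43 CPM in suprabasal cells of the controls. Timp3 fell below the minimum change without mutant 1 (0.95), and Adamtsl4 missed the call in the mutant libraries alone (0.76, edgeR adjusted p = 0.101).

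The 5 upstream sequences below are printed because the 4 neighbours that were higher in basal cells can be set beside Mmp27, the neighbour seen almost only in fibroblasts. Each gives the 100 bases before the transcription start in the GRCm38.p6 promoter table of RefSeq, 5′ to 3′ on the plus strand, with matches to TGANTCA, the core of the binding motif of AP-1 factors, in capitals. The motif reads the same on both strands.
Mmp13, chr9:7272414-7272513: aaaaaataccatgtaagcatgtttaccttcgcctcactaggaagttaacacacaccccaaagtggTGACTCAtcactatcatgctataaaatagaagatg
Mmp12, chr9:7347274-7347373: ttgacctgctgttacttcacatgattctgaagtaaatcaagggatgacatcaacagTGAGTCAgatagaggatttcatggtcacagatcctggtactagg
Mmp3, chr9:7445722-7445821: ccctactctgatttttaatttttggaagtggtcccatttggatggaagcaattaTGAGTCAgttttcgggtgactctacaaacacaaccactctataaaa
Mmp10, chr9:7502242-7502341: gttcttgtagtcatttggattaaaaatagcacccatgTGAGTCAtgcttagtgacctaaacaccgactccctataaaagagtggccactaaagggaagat
Mmp27, chr9:7571296-7571395: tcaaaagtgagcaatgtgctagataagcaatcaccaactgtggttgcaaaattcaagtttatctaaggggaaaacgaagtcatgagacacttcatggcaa

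The match began 35 bases before the start in Mmp13, 44 in the second of 2 windows of Mmp12, 46 in Mmp3 and 63 in Mmp10. Over the 250 bases before the start, 8 of the 10 cluster genes had a match in a window, Mmp8 and Mmp27 being the ones without, and so did 0 of the 27 other members found in that table. Of all 27025 genes in it, 7.82% had one. A match describes the letters of a window, and Mmp1a, Mmp1b, Mmp20 and Mmp7, which were barely detected in any group, had it too.

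**Figure D2:**
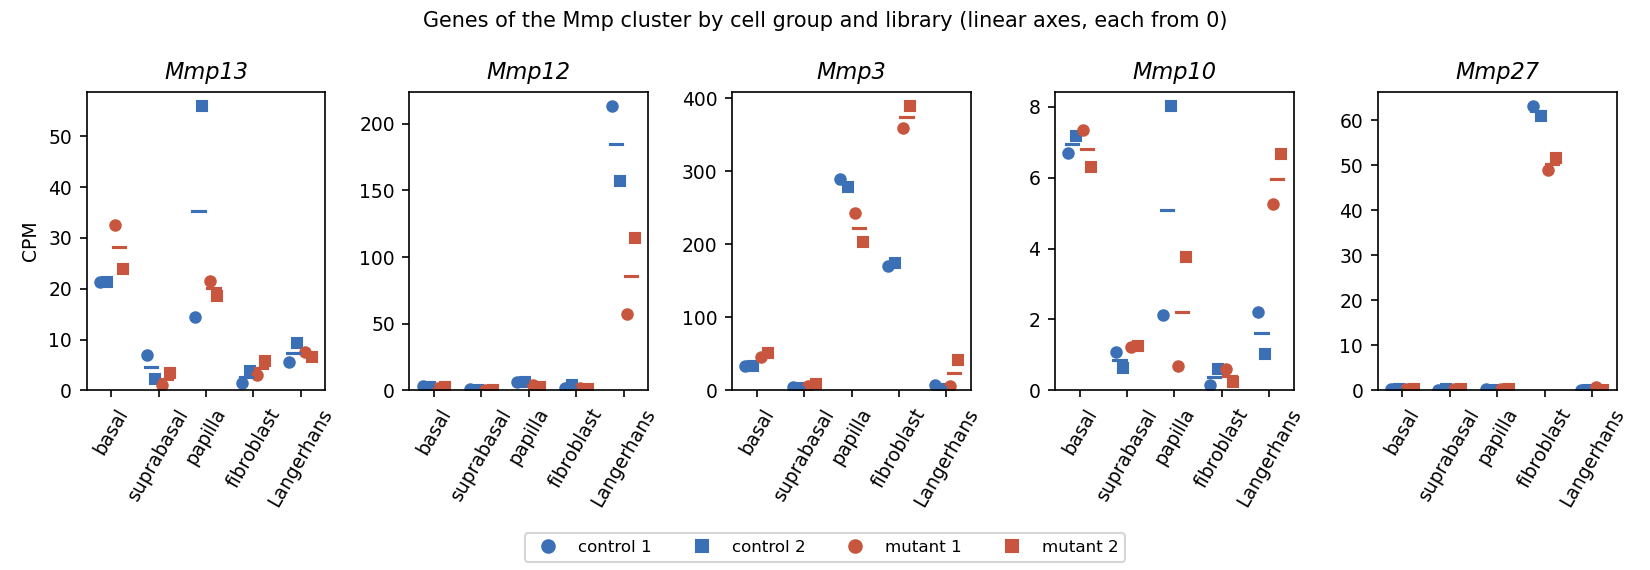
CPM of 5 genes of the chromosome 9 cluster (1 panel each, linear axis from 0) in 5 cell groups; points are the 2 control (blue) and 2 mutant (red) libraries and bars their means. Mmp27 sits between 49.0 and 63.1 CPM in fibroblasts and near 0 in the other 4 groups, while Mmp13 and Mmp10 are higher in basal than in suprabasal cells in all 4 libraries.

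Fibroblasts and papilla cells, the larger mesenchymal groups, differed in most members. Of 39 tested, 28 were called, 26 higher and 2 lower in fibroblasts, in a fit in which 28.3% of 12583 genes were called (16.7% higher and 11.6% lower). The median log2 difference was 1.88 over the tested members and 0.00 over all genes. The largest differences were those of Mmp27 (8.08 ± 0.23 SE, edgeR adjusted p = 5.25e-07), Adamtsl3 (5.52), Adamtsl1 (5.32) and Lox (5.08). Timp1 (4.66), Mmp2 (3.90), Mmp23 (3.68), Adamts2 (3.62), Timp2 (2.71) and Adamts12 (2.65), a protease of cartilage matrix proteins, completed the 10 largest. The genes lower in fibroblasts were Mmp13 (-2.45 ± 0.32 SE, edgeR adjusted p = 3.43e-04) and Mmp12 (-1.02 ± 0.25, edgeR adjusted p = 0.00837). Mmp12 fell below the minimum change without control 1 (-0.87), without mutant 2 (-0.95) and in the control libraries alone (-0.88). It also did so without the filter on low counts (-0.995), with up to 20% mitochondrial UMIs (-0.98) and without shared barcodes (-0.994). With no library block it was -1.04 (edgeR adjusted p = 0.059). Some proteases had substantial levels in papilla too: Mmp14 stood at 99.3 and 105 CPM and Adamts1 at 190 and 208 CPM in control papilla.

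The same contrast was smaller in mutant than in control libraries for several genes. For Lox the log2 difference was 6.11 among control and 4.42 among mutant libraries, for Mmp2 4.83 and 3.07, for Timp3 3.02 and 1.44, and for Adamts5 2.76 and 1.54. For Adamtsl2, an ADAMTS-like protein that binds fibrillin, it was -1.65 in the controls and 0.04 in the mutants. Tests of these differences are those of the interaction described further on.

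The genes on which the genotype results turn lie apart in the genome (GRCm38): Mmp2 on chromosome 8 (92827291 to 92853420, plus strand), Timp3 on chromosome 10 (86300372 to 86349506, plus), Adamtsl2 on chromosome 2 (27079379 to 27108981, plus) and Mmp3 in the chromosome 9 cluster (7445822 to 7455975, plus). Each tag was counted for the whole gene, so no exon or isoform can be named.

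In papilla-gated cells (281 and 286 control, 674 and 659 mutant cells), 9 of 36 tested members were called by genotype, 7 higher and 2 lower in the mutant libraries. In the same fit 5.37% of 12376 genes were called, 3.71% higher and 1.66% lower. At the adjusted p alone 18 members passed, a count given without its share over all genes. At an unadjusted edgeR p under 0.05, 22 members and 4112 of the 12376 genes passed. With every cell thinned to 2000 UMIs, a smaller sample of the same molecules, Mmp2 and Adamtsl2 were the 2 members called. The median log2 change was 0.38 over the tested members and 0.00 over all genes. Median depth in papilla was 6330 and 6192 UMIs in control and 6331 and 6010 UMIs in mutant libraries. The gate summed to 8926866 UMIs in control, with fewer cells, and to 11779308 UMIs in mutant libraries. Cells of high UMI count thus carried more of the control sums. Without the cells of most UMIs, Timp3 and Adamts8 lost their calls, as described below, while Mmp2 and Adamtsl2 kept theirs. The share of each call that rests on this difference was not tested.

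Mmp2 stood at 38.8 and 38.1 CPM (scaled by TMM, as are all values in the genotype tests) in control and at 112 and 119 CPM in mutant papilla cells. The groups did not overlap (log2 change 1.58 ± 0.10 SE, edgeR adjusted p = 1.88e-11). Timp3 stood at 83.8 and 65.0 CPM in control and at 175 and 162 CPM in mutant libraries (1.17 ± 0.10, edgeR adjusted p = 4.28e-09). Its change fell under the minimum with cells over 20000 UMIs left out (0.91) or with all cells thinned to 2000 UMIs (0.93). Lox stood at 5.76 and 4.68 CPM against 15.3 and 13.5 CPM (1.46 ± 0.23, edgeR adjusted p = 5.36e-05), again without overlap.

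The other called genes were at low levels. Adamts15, a proteoglycan-cutting protease, stood at 1.28 and 2.1 CPM in control and at 9.18 and 9.19 CPM in mutant libraries (2.44 ± 0.33, edgeR adjusted p = 8.83e-06), from 15 control and 107 mutant UMIs. Adamts12 rested on 4 control and 29 mutant UMIs (ratio of shares 5.49, 95% interval of counting error 1.93 to 21.5), with 0.427 and 0.468 CPM against 2.38 and 2.60 CPM. Its adjusted p of 0.00495 rose to 0.0521 without control 1, 0.0576 without mutant 1 and 0.0866 without mutant 2 (edgeR), and to 0.164 with DESeq2. Loxl4 rested on 6 and 33 UMIs, with 0.640 and 0.702 CPM against 2.55 and 3.12 CPM (2.04 ± 0.53, edgeR adjusted p = 0.00741). Its adjusted p was 0.0613 without control 1 and 0.134 without mutant 2 (edgeR), and 0.196 with DESeq2. Adamts20, known for its part in melanoblast survival, rested on 10 and 41 UMIs, with 1.49 and 0.702 CPM against 4.08 and 2.95 CPM (1.64 ± 0.47, edgeR adjusted p = 0.0147). It was lost without control 2 (1.22, adjusted p = 0.141), without mutant 1 (1.38, 0.219) and by DESeq2 (0.244). For these 4 genes, too, every mutant value lay above both controls, as is likely for genes picked by their call. Ctsb, a cathepsin gene that was not called, lacked overlap as well, at 187.7 and 186.1 against 189.9 and 189.6 CPM (log2 change 0.02). The share of all genes without overlap was not counted.

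The genes that fell were Adamtsl2 and Adamts8. Adamtsl2 stood at 36.3 and 43.5 CPM in control papilla, its highest group, and at 11.2 and 9.36 CPM in mutant papilla (-1.95 ± 0.16, edgeR adjusted p = 3.53e-09), and it kept its call in all alternatives that were run. Adamts8 stood at 4.48 and 8.18 CPM against 1.70 and 1.73 CPM (-1.85 ± 0.38, edgeR adjusted p = 0.00102). It missed the call when cells over 20000 UMIs were left out (-1.29, adjusted p = 0.133). Adamts8 lies 20.1 kb from Adamts15 on chromosome 9 with 0 protein-coding genes between them, and these neighbours changed in opposite directions.

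**Figure D3:**
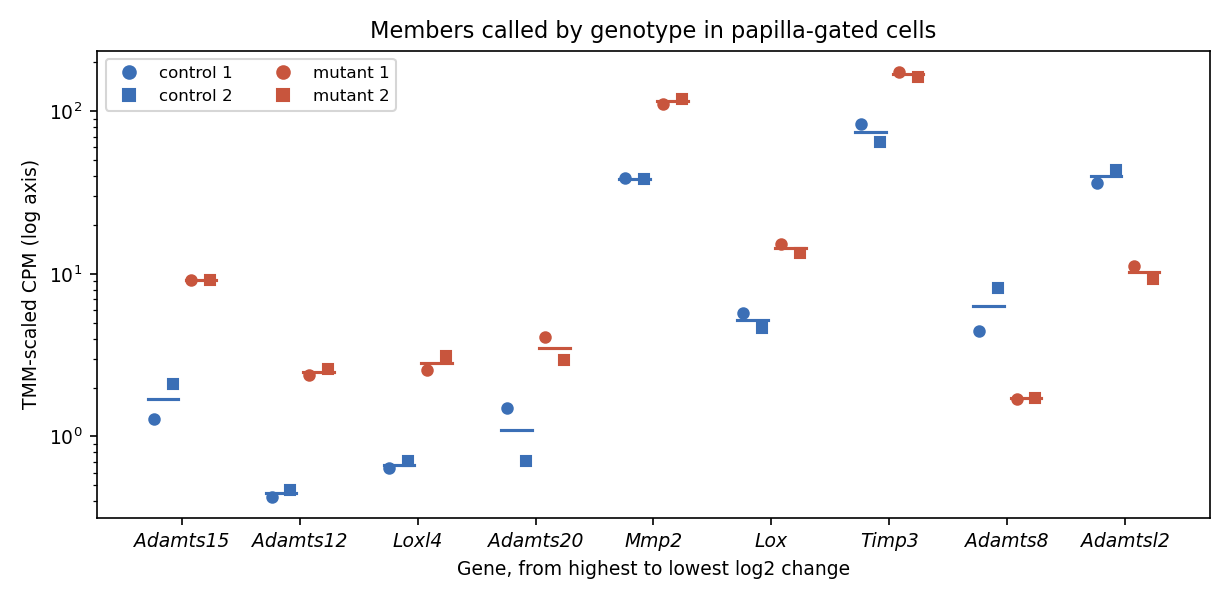
TMM-scaled CPM (log axis) of the 9 genes called by genotype in papilla-gated cells, ordered by log2 change; points are the libraries and bars the means of 2 libraries. Mmp2 goes from 38.8 and 38.1 to 112 and 119 CPM. Control and mutant libraries overlap in none of the 9 genes, which were picked by the call. Genes without a call could lack overlap too, so this adds no support.

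Markers of other cells moved with these changes. In papilla-gated cells the summed level of the 9 fibroblast markers was 1237 and 1491 CPM in control and 2077 and 2245 CPM in mutant libraries, with 4 of 9 called higher and 0 at 0. The 7 dermal sheath markers summed to 55.0 and 63.7 CPM in control and to 169 and 173 CPM in mutant libraries, with 4 of 6 tested called higher. The median fibroblast marker stood at 1.36% of its fibroblast level in control and at 2.38% in mutant papilla. The 9 markers ranged from 0.398% to 28.0% in control and from 1.00% to 43.0% in mutant papilla. Mmp2, at 4.49% and 15.3%, and Lox, at 1.83% and 5.99%, lay above the median marker in both genotypes. They also lay within the ranges, but ranges this wide could hold many genes, so that decides nothing. The 10 papilla markers summed to 2830 and 3059 CPM in control and to 2522 and 2548 CPM in mutant papilla, while 6 of the 10 were called higher, among them Corin (log2 change 2.15) and Rspo3 (1.29), and 0 lower. The part of these shifts in the changes of Mmp2, Lox and Timp3 was not tested.

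Mmp3 in papilla came from few cells. It stood at 289 and 279 CPM in control papilla and at 243 and 203 CPM in mutant papilla, but just 5 cells held 56.4% (control 1), 85.9% (control 2), 62.3% (mutant 1) and 43.3% (mutant 2) of all its UMIs. In fibroblasts the 5 cells with most held 18.7% to 29.2%. In papilla cells of up to 20000 UMIs, which leave out 83 and 65 control and 44 and 50 mutant cells, Mmp3 stood at 159 and 20.6 CPM in control and at 184 and 150 CPM in mutant libraries. The genotype change in papilla, -0.33 over all cells (edgeR adjusted p = 0.00469, under the minimum change), was then 1.03 (adjusted p = 2.08e-04). Mmp13 behaved alike: 5 cells held 94.9% of its 237 UMIs in papilla cells of control 2, and its change of -0.76 (edgeR adjusted p = 0.0909) became 1.25 without cells over 20000 UMIs and 0.48 without control 2. No direction in papilla is therefore given for these neighbours.

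**Figure D4:**
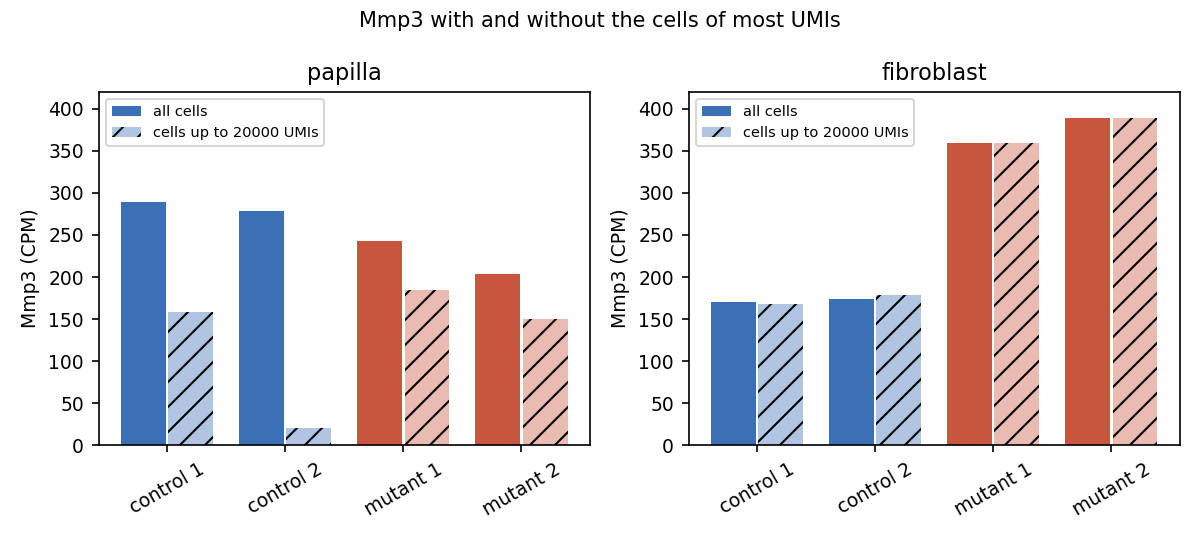
Mmp3 CPM in each library over all cells (solid bars) and over cells of up to 20000 UMIs (hatched bars), in papilla (left) and fibroblasts (right). Without the cells of most UMIs, control 2 drops from 279 to 20.6 CPM in papilla, while the fibroblast values stay between 168 and 389 CPM with every mutant library above every control.

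In fibroblasts (789 and 738 control, 1102 and 1179 mutant cells), 3 of 41 tested members were called, all higher in the mutant libraries, where 1.48% of 12871 genes were called and 1.2% called higher. The median log2 change was -0.07 over the tested members and 0.00 over all genes. Mmp3 stood at 169 and 171 CPM in control and at 366 and 394 CPM in mutant fibroblasts (1.16 ± 0.05 SE, edgeR adjusted p = 1.44e-08), with no overlap, and it kept its call in all alternatives that were run. Adamts18 stood at 0.731 and 3.48 CPM against 11.3 and 13.0 CPM (2.52 ± 0.32, edgeR adjusted p = 2.03e-04), from 29 control and 290 mutant UMIs, and DESeq2 did not call it (adjusted p = 0.127). The number of called members was higher when a library was left out, as given further on without its share over all genes. Mmp15, a membrane-anchored MMP, rested on 4 control and 82 mutant UMIs, with 0.293 and 0.290 CPM against 3.36 and 3.51 CPM (ratio of shares 11.5, 95% interval of counting error 4.31 to 43.1; edgeR adjusted p = 2.80e-04). In control Schwann cells, its highest group, Mmp15 stood at 17.6 and 28.8 CPM.

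For most genes high in fibroblasts the fitted change was small. Timp2 had a log2 change of 0.00 ± 0.04 SE, Loxl1 of 0.09 ± 0.06, Adamts2 of -0.15 ± 0.05 and Mmp14 of 0.19 ± 0.05. Loxl2 (-0.43 ± 0.06, edgeR adjusted p = 2.20e-04), Timp3 (-0.38 ± 0.05, 1.53e-04) and Adamts5 (-0.38 ± 0.06, 0.00125) passed the adjusted p with changes under the minimum. In the fibroblast gate, 0 of the 9 fibroblast markers were called by genotype and their sum ranged from 46470 to 48243 CPM over the 4 libraries. Markers of other types were called higher there: Sox18 (0.878 and 0 against 6.46 and 4.98 CPM), Cdh5 (2.93 and 3.05 against 10.2 and 10.9 CPM), Mlana and Dct, Plin4, and 3 haemoglobin genes, whose list of 5 erythroid markers summed to 14.6 and 16.8 against 34.8 and 37.9 CPM. Vtn, a pericyte marker, was called lower. Their part in the changes of Mmp15 and Adamts18 was not tested. The median depth of a fibroblast was 8039 and 8719 UMIs in control and 10232 and 9795 UMIs in mutant libraries.

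Whether a genotype change differed between fibroblasts and papilla was tested as an interaction in a single fit with library as a block. Of 43 tested members 11 were called, in a fit with 3.97% of 13385 genes called, and 7 of these 11 had the more positive change in papilla while 4 had it in fibroblasts (all genes: 2.68% and 1.29%). The 7 were Loxl4, Adamts12, Mmp2, Lox, Timp3, Adamts5 and Loxl2. For Mmp2 the change was 1.58 ± 0.10 in papilla and -0.16 ± 0.05 in fibroblasts (difference -1.76 ± 0.10 SE, edgeR adjusted p = 6.62e-10). Timp3 (difference -1.58 ± 0.10, edgeR adjusted p = 4.36e-09) and Lox (-1.70 ± 0.22, 2.85e-05) likewise had a positive change in papilla and a negative one in fibroblasts. Loxl2, which crosslinks collagen IV as well as fibrillar collagens, had 0.71 ± 0.12 in papilla and -0.43 ± 0.06 in fibroblasts (difference -1.16 ± 0.12, edgeR adjusted p = 1.90e-06). Adamts5 had 0.83 ± 0.11 and -0.38 ± 0.06 (difference -1.22 ± 0.12, edgeR adjusted p = 1.04e-06).

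Of the other 4, Adamtsl2 had -1.95 in papilla and -0.25 in fibroblasts (difference 1.68 ± 0.23, edgeR adjusted p = 5.59e-05), where it stood at 8.78 and 10.9 against 7.76 and 8.74 CPM. Adamts8 had a difference of 2.24 ± 0.51 (edgeR adjusted p = 0.00697), not called without control 2 (1.45, adjusted p = 0.117) or without cells over 20000 UMIs (1.81, 0.107). Loxl4 (-2.79) and Adamts5 were not called without those cells either (-2.12, edgeR adjusted p = 0.0851, and -0.85), nor, like Lox, with thinned cells (-1.91, -0.71 and -1.39). Adamts12 (-2.13) was not called without control 1 (adjusted p = 0.0842), control 2 (0.173) or mutant 1 (0.0797), by edgeR. For Mmp3 the difference of 1.47 was 0.07 (adjusted p = 0.955) without cells over 20000 UMIs, and for Mmp13 the 1.51 became -0.78 (adjusted p = 0.451). Mmp13 was also not called without control 2 (1.09) or without mutant 2 (0.85).

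**Figure D5:**
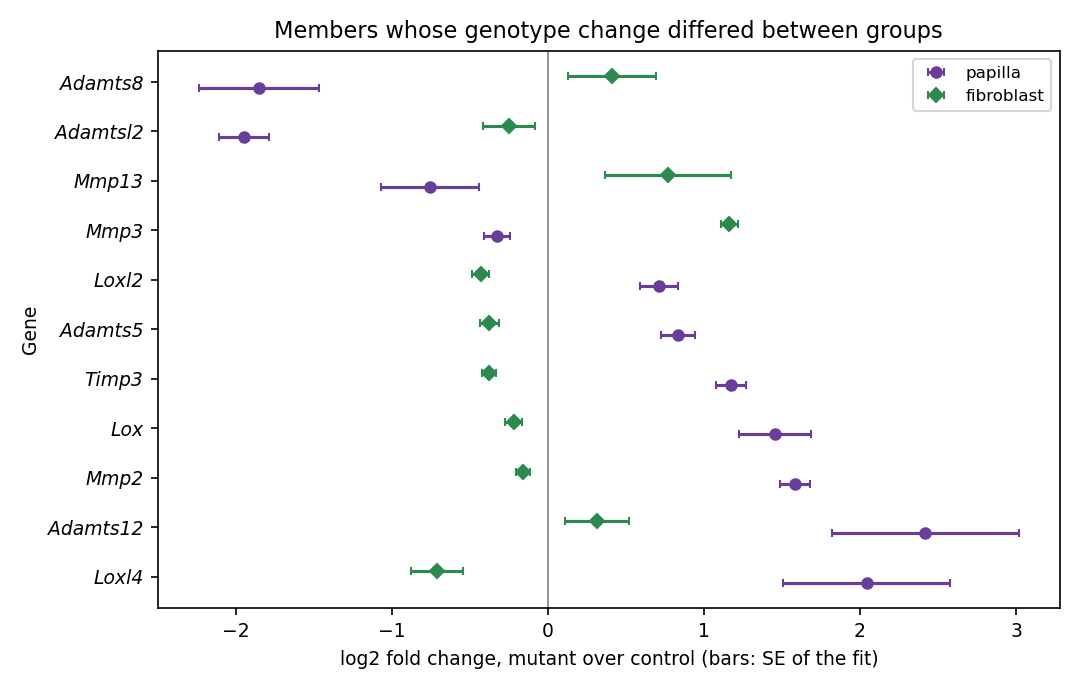
log2 change of mutant over control libraries (x axis, bars are the SE of the fit) in papilla (purple circles) and fibroblasts (green diamonds) for the 11 genes called in the interaction. Mmp2, Lox, Timp3, Adamts5, Loxl2 and Loxl4 lie right of 0 in papilla and left of it in fibroblasts, and Adamtsl2 lies at -1.95 in papilla and at -0.25 in fibroblasts.

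In the remaining 10 groups with at least 50 cells in every library, 7 calls were made in all, a number that rose when a library was left out. T, NK or innate lymphoid cells had 4 of 19 tested members called (3.74% of 11192 genes). Mmp12 fell from 8.16 and 7.55 CPM to 0.902 and 1.43 CPM (-2.73 ± 0.34 SE, edgeR adjusted p = 1.39e-05), on 90 control and 13 mutant UMIs. In that gate the Langerhans or dendritic markers summed to 228 and 255 CPM in control and to 422 and 419 CPM in mutant libraries, and the macrophage markers to 32.4 and 31.0 against 25.3 and 25.9 CPM. Within Langerhans or dendritic cells Mmp12 stood at 213 and 157 against 57.2 and 114 CPM, without a call. Mmp3 (4.35 and 3.69 against 11.4 and 9.66 CPM, 1.39), Lox (1.09 and 1.51 against 2.71 and 4.29 CPM, 1.41) and Mmp2 (4.35 and 4.53 against 9.38 and 11.3 CPM, 1.21) were higher. In the mutant libraries they stood at 2.87% (Mmp3), 1.5% (Lox) and 1.41% (Mmp2) of their fibroblast level, and the median fibroblast marker stood at 0.568% in control and 1.08% in mutant libraries of this gate. Lox was not called without control 1 (1.19, edgeR adjusted p = 0.123) or without mutant 2 (1.04, 0.294).

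Basal keratinocytes had 1 of 35 called (2.08% of 14699 genes): Adamts2, at 1.43 and 1.63 against 3.62 and 2.72 CPM (1.05 ± 0.17, edgeR adjusted p = 5.75e-05), where the median fibroblast marker went from 0.172% to 0.522% of its fibroblast level. The call was lost without cells over 20000 UMIs (0.49, edgeR adjusted p = 0.355), without doublet removal (0.67), without control 1 (0.96) and without mutant 1 (0.83). Mmp3, highest in basal cells among the keratinocytes, stood at 33.7 and 32.8 against 44.9 and 50.8 CPM (log2 change 0.52 ± 0.05, edgeR adjusted p = 4.07e-08, under the minimum). Suprabasal keratinocytes had 1 of 27 called (1.54% of 12067): Lox, at 0.408 and 0.399 against 1.46 and 1.33 CPM on 18 and 43 UMIs (1.77 ± 0.38, edgeR adjusted p = 0.00816), with fibroblast markers at 0.241% and 0.530%. Its adjusted p was 0.217 without cells over 20000 UMIs and 0.0664 with a score gap of 0.5 (edgeR). The part of these marker levels in the changes of Mmp3, Lox, Mmp2 and Adamts2 was not tested.

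Dermal sheath cells had 1 of 27 called (1.23% of 8766 genes). Timp4 stood at 37.2 and 26.8 CPM in control and at 6.23 and 9.53 CPM in mutant libraries (-1.99 ± 0.40, edgeR adjusted p = 0.0441), on 31 control and 31 mutant UMIs. The gate itself differed: it held 61 and 70 control and 209 and 201 mutant cells, its 7 own markers summed to 10567 and 7140 CPM in control and 3772 and 4463 CPM in mutant libraries, and 4 of them were called lower. Pericyte markers in it summed to 2238 and 2286 against 691 and 688 CPM. Timp4 was not called without control 1 (-1.73, adjusted p = 0.137) or without mutant 1 (-1.69, 0.663), by edgeR.

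No member was called in upper follicle keratinocytes (16 tested, 0.314% of all genes called), bulge keratinocytes (14 tested, 0.678%), blood endothelium (9 tested, 0.18%), lymphatic endothelium (10 tested, 0.954%), Schwann cells (21 tested, 0.154%) or Langerhans or dendritic cells (8 tested, 0.297%). With edgeR at an unadjusted p under 0.05 the numbers of members were 0, 2, 1, 2, 1 and 2. Of all genes, 916 of 10500, 1090 of 9139, 491 of 6120, 1001 of 6289, 694 of 9109 and 632 of 7081 passed that rule. DESeq2 called 0 members in each of these groups. Other alternatives called up to 4 members in Langerhans or dendritic cells, with 4 to 173 genes called in all, and up to 1 in upper follicle keratinocytes and in lymphatic endothelium. The 4 members came with a library left out. These member counts are given without the share of all genes called at the same setting, so they say nothing about the members in particular. In Schwann cells, where it was highest, Timp3 stood at 2819 and 2631 CPM in control and at 2683 and 2695 CPM in mutant libraries.

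Other genes of matrix turnover were read from a list of 38. In papilla 33 were tested, 2 were called higher and 1 lower, where 5.37% of all genes were called. Serpinf1, an antiangiogenic serpin, went from 51.8 and 65.0 to 204 and 221 CPM (1.87 ± 0.10, edgeR adjusted p = 9.92e-13), and Spock2, a testican, from 1.07 and 1.17 to 3.06 and 4.33 CPM (1.70). Lcn2, whose product binds MMP9, fell from 38.0 and 32.7 to 7.82 and 8.67 CPM (-2.1 ± 0.17, edgeR adjusted p = 2.14e-09). In fibroblasts (1.48% of all genes called) 1 of 34 was called, Adam12, a membrane metalloprotease, from 10.5 and 11.3 to 27.3 and 25.8 CPM (1.28 ± 0.12, edgeR adjusted p = 1.07e-05). Between fibroblasts and papilla, where 16.7% of all genes were called higher and 11.6% lower, 20 of 34 were called higher in fibroblasts, led by Pcolce2 (7.21), an enhancer of procollagen cleavage, and 4 lower: Lcn2 (-5.27), the protease inhibitor Serpine2 (-4.36), and the collagen-modifying enzymes P4ha3 (-3.57) and Plod2 (-1.94).

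The sorted library of GFP-positive cells, made with an earlier chemistry at a lower depth and so not compared by test, held 73 papilla-gated and 56 fibroblast-gated cells. It lists 55 of the 56 genes, Mmp1a being absent from its gene list. In its papilla cells eGFP stood at 7338 CPM, Timp2 at 168 CPM (95% Poisson interval of counting error 113 to 241), Mmp14 at 133 CPM (84.5 to 200.04) and Mmp2 at 75.4 CPM (40.1 to 129). In its fibroblasts Timp2 stood at 1657 CPM (1397 to 1952), Mmp2 at 1078 CPM (870 to 1320) and Mmp14 at 545 CPM (400.2 to 724). Mmp3 had 0 of 172519 UMIs in sorted papilla cells, which allows up to 17.4 CPM, and 18 UMIs in sorted fibroblasts (209 CPM, 124 to 330). Lox had 0 and 8 UMIs in these groups. Crabp1, a papilla marker, stood at 5854 CPM in the papilla gate of this library. It was also at 1831 CPM in the fibroblast gate and at 2090 CPM in the gate called blood endothelial. Its source in these other gates was not tested.

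Genes named above for a call but below 50 CPM had their highest means in these groups of the control libraries. Adamts20 stood at 25.0 and 36.4 CPM in Schwann cells, Timp4 at 36.8 and 25.8 CPM in dermal sheath, and Adamtsl4 at 36.3 and 35.5 CPM in bulge keratinocytes. Adamts14, a procollagen proteinase, was at 9.61 and 10.2 CPM in fibroblasts and at 10.1 and 9.39 CPM in basal keratinocytes, which overlapped. Mmp25, a lipid-anchored MMP, was highest in papilla with 10.9 and 16.1 CPM, and Loxl4 in fibroblasts with 13.0 and 11.2 CPM. Adamts8, Adamts12 and Adamts15 had their highest means in pericytes, on only 7, 4 and 5 UMIs. Of the other members, Adamts10 was close to even between fibroblasts (45.97 and 45.83 CPM) and papilla (35.8 and 44.4 CPM), and Mmp9, a gelatinase of immune cells, stood at 5.53 and 28.1 CPM in Langerhans or dendritic cells. Adamts19 was counted mainly in the bulge, at 7.38 and 6.37 CPM against 0.127 and 0.0529 CPM in basal keratinocytes. Mmp16, a membrane-anchored MMP, stood at 29.3 and 31.1 CPM in fibroblasts and at 20.9 and 26.7 CPM in papilla. Mmp17 and Mmp11 had their highest means in dermal sheath (17.8 and 12.4 CPM), as had Adamts7 (9.49 CPM), while Adamts17 had it in the bulge (10.1 CPM), Mmp28 in Schwann cells (6.98 CPM) and Adamts6 in mast cells, on 1 UMI.

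In all, 9 members were tested in no genotype fit (Adamts13, Mmp24, Adamts3, Mmp21, Mmp1b, Mmp8, Mmp20, Mmp7 and Adamts16), and 5 of these had under 50 UMIs in all kept unsorted cells. Members just inside the limit of 50 CPM were Adamtsl5 at 52.4 CPM and Adamtsl1 at 55.7 CPM, and those just outside it were Adamts10 at 45.9 CPM and Adamtsl3 at 44.2 CPM. A member could be tested only where it passed the filter on low counts, so the counts above cover the tested members and not all 56.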

How the data were processed

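Droplet single-cell RNA sequencing was done on 4 unsorted and 1 sorted library of mouse skin. What the authors deposited are unnormalised UMI counts for each gene in each cell, written by Cell Ranger 3.1.0 for the unsorted libraries per the file headers. Per the submitters' processing notes, Cell Ranger 2.1.1 and 3.1.0 and the build mm10 (GRCm38) were used, as were Seurat 3.2.2 and Scanpy 1.6.0, whose cell annotation was not used here. Per the labels' protocols, the sorted library was made with an earlier version of the kit than the unsorted ones. Library totals were 163044933 and 171197845 UMIs in control, 152475023 and 147245343 in mutant and 1138206 in the sorted library.

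Cells with 500 to 8000 genes (at least 300 in the sorted library) and at most 10% mitochondrial UMIs were kept, and 152 to 181 predicted doublets per unsorted library were removed with scrublet in scanpy 1.11.5. Each cell was scored for marker lists of 21 cell types. It was gated at a score of at least 0.5, a gap of 0.25 to the next type and 3 detected markers (2 in the sorted library). UMIs were summed per gate and library, since cells are not replicates. Intervals and limits for 0 UMIs (3 counts) cover counting error only.

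Tests used edgeR 4.0.16 in R 4.3.3: TMM scaling, filterByExpr, quasi-likelihood tests, and Benjamini-Hochberg adjustment over all genes. Genotype was the only term within a gate, and library was a block in comparisons of gates. The code was tested on simulated counts. Genes were named where they reached 50 CPM in a control group, were called by genotype, or were among the 10 largest calls in a direction between gates; other members and Smo, Crabp1 and markers of other cell types were named after their values were seen. The members and lists were chosen with earlier results of these data known. Positions are from GENCODE vM21 on GRCm38, and promoter sequences from RefSeq. Alternatives were other size factors, DESeq2 1.42.0, no filter on low counts, no doublet removal, stricter gates, thinned cells, limits on cell depth and mitochondrial share, each library left out, and a replicate block.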

Additional observations from a re-analysis of the deposited data

Results flagged for a closer look

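The genotype change differed between fibroblasts and papilla cells for 11 genes, by the edgeR interaction test. Given as the change in fibroblasts minus the change in papilla on the log2 scale, the differences were -2.79 for Loxl4, -2.13 for Adamts12, -1.76 for Mmp2, -1.70 for Lox, -1.58 for Timp3, -1.22 for Adamts5 and -1.16 for Loxl2. They were 1.47 for Mmp3, 1.51 for Mmp13, 1.68 for Adamtsl2 and 2.24 for Adamts8. With cells over 20000 UMIs left out, 5 members were called, and the values of Mmp3 and Mmp13 were 0.07 and -0.78. Loxl4 was then at -2.12 (edgeR adjusted p = 0.0851), and at -1.91 (0.598) with cells thinned to 2000 UMIs.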

How the results depend on the processing

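Of 1266 alternative values for named genes, 1189 kept direction and side of the threshold, 66 lost the call, 3 gained one and 8 changed sign. Those that changed sign were Mmp13 in papilla (0.56 with cells thinned to 2000 UMIs, 1.25 without cells over 20000 UMIs, 0.48 without control 2), Mmp3 in papilla (0.27 thinned, 1.03 without those cells), Adamts12 and Adamtsl2 in fibroblasts (-0.48 and 0.55 thinned), and the Mmp13 difference between them (-0.78 without those cells). The calls gained were Mmp13 in papilla without control 1 (-1.44) and in fibroblasts without control 2 (1.61) or with a score gap of 0.5 (1.52).

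DESeq2 called 383 genes by genotype in papilla, 109 in fibroblasts and 231 in the interaction, with 7 members in the last and 4 over the other 10 groups. Thinning left 322 genes and 2 members in papilla, 81 genes in fibroblasts, 2103 between fibroblasts and papilla, 1806 and 7 between the keratinocyte layers, 216 and 5 in the interaction, and 4 members in the other groups; it also uses fewer UMIs. Without cells over 20000 UMIs, 2298 genes were called between the layers, and 352 genes and 5 members in the interaction. Up to 20% mitochondrial UMIs gave 11 members in the other groups. Gates with a score gap of 0.5, added after seeing the data as was leaving out shared barcodes, gave 5 members in fibroblasts. Member counts printed here without the genes called at the same setting say nothing about the members in particular. The causes were not tested.

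With each library left out in turn, member calls ranged from 8 to 9 in papilla, 4 to 5 in fibroblasts, 28 to 31 between fibroblasts and papilla, 10 to 13 between the layers, 9 to 10 in the interaction and 9 to 15 in the other groups. A lone library was then assumed to vary like the other genotype. These counts are given without the share of all genes called, so they say nothing about the members in particular. Mmp2 and Adamtsl2 in papilla and Mmp3 in fibroblasts kept their calls in all alternatives run. With the replicate number as a block, 678 genes and 10 members were called in papilla and 188 and 3 in fibroblasts. The replicate differences of the genotypes correlated from -0.054 to 0.074 over the gates. These correlations run over all tested genes, where counting error can hide a shared deviation. They therefore cannot decide whether same-numbered libraries share a preparation. Depth limits the low genes: Adamts12 and Mmp15 each rest on 4 control UMIs.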
